A study of Mus musculus with 6 samples.

Results

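The YAP target genes are 9 mouse genes, Amotl2, Ptpn14, Fjx1, Ajuba, Ccn1, Ccn2, Crim1, Axl and Ankrd1, that are commonly read as targets of the transcriptional co-activator YAP. They were chosen by name, with earlier results of these data known. Their probes were found through the RefSeq accession that the array gives for each probe, with Ccn1 and Ccn2 formerly called Cyr61 and Ctgf. All 9 had a probe, 12 probes in all, and 7 of them had only 1. Of the 27916 features tested in the series, 6 are members: Amotl2, Ptpn14, Fjx1, Ajuba, Ccn1 and Axl. Ankrd1 and Ccn2 were too dim, and the only Crim1 spot was marked as non-uniform on 5 of the 6 arrays, so these 3 genes are described by their signals without a test.

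RNA of colonic epithelium from 3 male miR-31 knockout (KO) mice and 3 male wild-type (WT) mice was hybridised to Agilent one-colour arrays, with 1 array per mouse. The strain, the age and how the knockout was made are not given in the sources used here, nor is the gate by which the epithelium was separated by flow. The array had 0 probes for Mir31 or its host transcript, and the loss of miR-31 is taken from the labels. Nothing in the labels says whether the mice of a group were littermates.

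YAP, with its relative TAZ (gene Wwtr1), is the output of the Hippo pathway. The kinases LATS1 and LATS2 phosphorylate YAP and hold it in the cytoplasm. When they are inactive, YAP enters the nucleus and switches genes on through the DNA-binding TEAD factors. In the gut epithelium YAP is known for its part in repair after injury, and several of its targets feed back to restrain it.

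The 3 KO mice lack miR-31, whose mature forms in RefSeq (build GRCm38.p6) are shown because they are what distinguishes the groups. They lie on the minus strand of chromosome 4, miR-31-5p at chr4:88910614-88910635 and miR-31-3p at chr4:88910577-88910599, and capitals mark the seed, bases 2 to 8.
miR-31-5p: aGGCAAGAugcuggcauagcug
miR-31-3p: uGCUAUGCcaacauauugccauc

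The sequence at the starts of the genes was looked at as well. RefSeq promoter windows of 300 bases (250 before and 50 after the gene's start, GRCm38.p6) were at hand for 7 of the 9 genes, all but Fjx1 and Ccn2. Each was searched on both strands for the core letters bound by TEAD factors, GGAATG or its reverse complement CATTCC. All 7 windows held them, at 9 positions, whereas 14.7% of all 32851 windows and 16.6% of the 27025 genes with a window did. YAP acts through TEAD factors and the genes were chosen as its targets, so this share is not independent of the choice. The stretches that hold the matches are shown with 17 flanking bases, on the strand of the gene, with the matching letters in capitals. They are Ptpn14 at chr1:189728105-189728144 (plus strand), Amotl2 at chr9:102717722-102717761 (plus), Ajuba at chr14:54577803-54577864 (minus), Crim1 at chr17:78200152-78200191 (plus), Ankrd1 at chr19:36119945-36120071 (minus), Axl at chr7:25788944-25788983 (minus) and Ccn1 at chr3:145650066-145650105 (minus).
Ptpn14: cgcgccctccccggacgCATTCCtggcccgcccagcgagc
Amotl2: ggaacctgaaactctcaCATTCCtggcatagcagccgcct
Ajuba: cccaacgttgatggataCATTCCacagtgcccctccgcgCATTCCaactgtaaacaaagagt
Crim1: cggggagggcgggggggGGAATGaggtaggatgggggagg
Ankrd1: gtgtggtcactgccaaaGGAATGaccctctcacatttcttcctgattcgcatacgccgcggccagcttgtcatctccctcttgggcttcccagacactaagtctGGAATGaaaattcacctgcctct
Axl: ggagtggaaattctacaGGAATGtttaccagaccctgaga
Ccn1: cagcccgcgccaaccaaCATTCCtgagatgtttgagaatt

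The match nearest to a start was that of Amotl2, whose first base lay 65 bases upstream, and the farthest was that of Axl, 233 bases upstream. Ajuba had 2 matches, 186 and 164 bases upstream, and Ankrd1 had 2, 210 and 123 bases upstream. Those of Ptpn14, Ccn1 and Crim1 lay 146, 103 and 79 bases upstream. The letters of the AP-1 site, TGANTCA, a factor that often binds beside TEAD, were in 0 of the 7 windows and in 7.81% of all windows. The letters TATAAA or their reverse complement were in 1 of the 7, that of Ccn1, and in 13.6% of all windows. The TATAAA match of Ccn1 lay outside its TEAD match. A match describes the letters only, and binding was not measured in these samples.

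**Figure D1:**
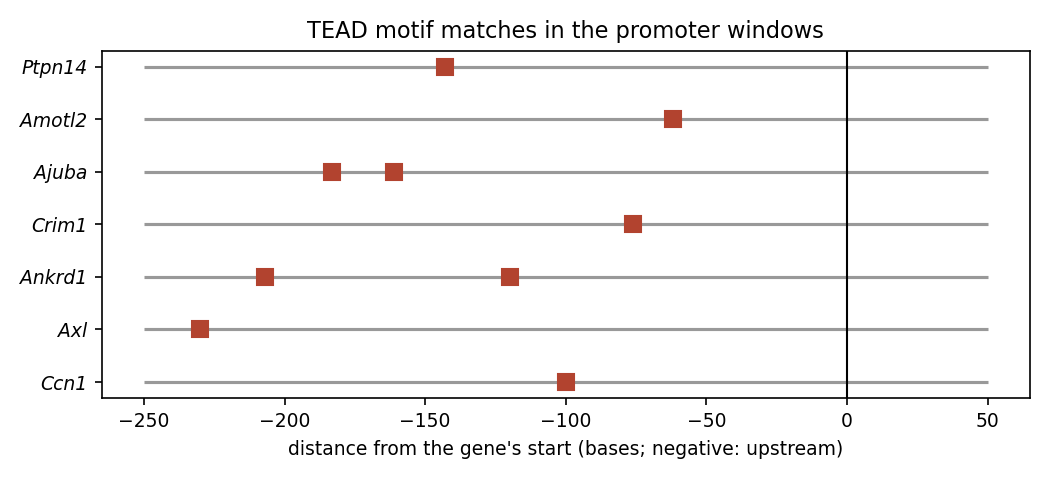
Position of each match to the TEAD letters in the promoter windows of the 7 genes with a window. The horizontal axis is the distance from the gene's start in bases, negative upstream; squares mark the matches, and all 9 lie upstream of the start.

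Levels below are log2 of the processed intensity minus log2 of the 75th percentile of the same array's non-control spots, so a level of 0 equals that percentile. A change is the mean level of the KO arrays minus that of the WT arrays, fitted with limma over all 27916 features, with its standard error (SE), and the adjusted p is by the Benjamini-Hochberg method over all of them. With 3 mice a group, and in RNA of a whole tissue fraction, more cells that express a gene and more of its RNA per cell cannot be told apart.

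Across the 6 members tested, 5 had a change above 0 and 1, Ajuba, below it. The median change was 0.35 and the range -0.09 to 0.58. Over all features, of which 15251 had a gene symbol, the median was -0.06 and 38.5% were above 0. Among the 11601 features whose mean level lay in the range of the members, the median was -0.11 and 34% were above 0. None of the 6 passed the adjusted threshold of 0.05 in limma, which 0.208% of all features did (0.147% higher and 0.0609% lower). At an unadjusted p under 0.05, 1 of the 6 (16.7%), Fjx1, was higher and 0 were lower, against 10.7% of all features, with 3.18% higher and 7.55% lower. The groups did not overlap for 1 of 6, Fjx1 again, with KO above, and for 18% of all features, with KO above in 5.56% and KO below in 12.5%. The members' median was above that of all features, while the difference of each single gene failed the adjusted threshold. The genes were chosen with earlier results of these data known, so their median is a description and no independent test.

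**Figure D2:**
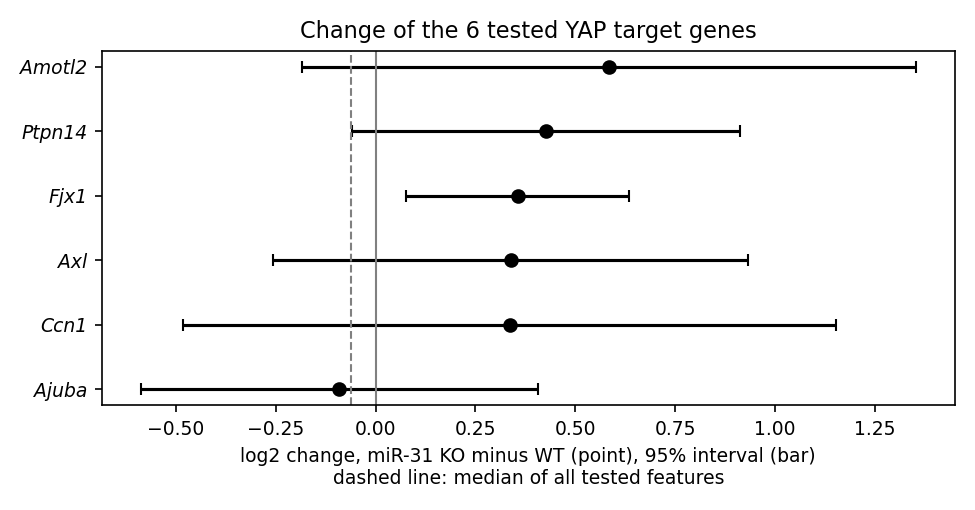
Change of each tested YAP target gene, miR-31 KO minus WT, as points with 95% intervals from limma (bars); the horizontal axis is the log2 change, the solid line is 0 and the dashed line is the median of all features at -0.06. The interval of Fjx1 alone lies wholly above 0, and the point of Ajuba alone lies below 0.

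Amotl2 encodes angiomotin-like 2, a junction protein that binds YAP and keeps it out of the nucleus, and is itself switched on by YAP. It had the largest difference of the 6 members. Its processed intensity was 698, 598 and 990 on the KO arrays, against 397, 320 and 798 on the WT arrays, and its log2 level was -2.34, -2.38 and -1.79 in KO mice, against -2.92, -3.28 and -2.07 in WT mice. WT replicate 3 was above KO replicates 1 and 2, so the groups overlapped, while the other WT mice were below every KO mouse. The change was 0.58 ± 0.33 (SE; 95% interval -0.19 to 1.35) and the adjusted p was 0.572 in limma. Among the 4 mice whose numbers in the titles share their first digits, KO was higher by 0.73 (2 mice against 2), and in the remaining pair of mice it was higher by 0.28. With a term for that number the SE was 0.16 and the adjusted p was 0.268. The change was 0.93 without WT replicate 3 (adjusted p = 0.184) and 0.32 without WT replicate 2 (adjusted p = 0.918). The other tested members differed in sign in the remaining pair of mice. There KO was higher for Fjx1 (0.28) and Ccn1 (0.89), and lower for Ptpn14 (-0.08), Axl (-0.08) and Ajuba (-0.41).

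Ptpn14 encodes a non-receptor tyrosine phosphatase that also binds YAP and retains it in the cytoplasm. It was the only member with 3 probes in the test, and the brightest of them was used. By that probe its log2 level was -4.07, -4.01 and -4.30 in KO mice, against -4.49, -4.96 and -4.22 in WT mice. Again WT replicate 3 lay among the KO mice and the other WT mice below them. The change was 0.43 ± 0.21 (SE; 95% interval -0.06 to 0.91; limma, adjusted p = 0.517). It was 0.22 without WT replicate 2. With the slide column as a term, which leaves only the 4 arrays in shared columns to carry the difference, it was 0.68. Those arrays are of the same 4 mice whose numbers share their first digits, so shared columns and shared digits mark the same split of the mice.

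The other Ptpn14 probes differed from each other in sign. The second probe was at 0.37 ± 0.17 (SE), with every KO array above every WT array and an adjusted p of 0.506 in the limma fit over probes. The third was at -0.22 ± 0.20 (adjusted p = 0.754), with KO means of -5.79 ± 0.14 against WT means of -5.57 ± 0.38 (SD, n = 3 each). With the mean of the 3 probes the change was 0.19 ± 0.11 (SE), and with normexp background correction it was 0.16 ± 0.14. Of the 3 probes, 2 were thus above 0 and 1 below.

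Fjx1 encodes a Golgi protein whose Drosophila counterpart phosphorylates the cadherins Fat and Dachsous, which act upstream of Hippo in the fly. It was the most even member within KO. Its processed intensity was 72.3, 64.7 and 70.4 on KO arrays, against 50.7, 45.1 and 57.0 on WT arrays, and its log2 level was -5.61, -5.59 and -5.60 in KO mice, against -5.89, -6.11 and -5.88 in WT mice. All KO mice were above all WT mice. The change was 0.36 ± 0.12 (SE; 95% interval 0.08 to 0.63), which is 1.28-fold, with an unadjusted p of 0.0196 and an adjusted p of 0.366 in limma, the 1498th smallest p of all features. The SD within KO was 0.01 and that within WT 0.13.

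The signals of Fjx1 were faint. The dimmest signal still called well above background was between 9.56 and 36.6 on the KO arrays and between 20.1 and 34.5 on the WT arrays. The scanner software put an error of 9.75 to 14.0 on each KO intensity and of 6.46 to 9.09 on each WT intensity, so the 3 KO values lay closer together than that error. With normexp background correction the change was 0.16 ± 0.12 (SE; unadjusted p = 0.196). With limma's trend and robust options together, its SE was 0.21 and its unadjusted p was 0.123.

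Ajuba encodes a LIM-domain protein that binds and inhibits LATS kinases. Its log2 level was -2.93, -3.08 and -3.68 in KO mice, against -3.00, -3.15 and -3.27 in WT mice. KO replicate 3 was the lowest of the 6 mice and KO replicate 1 the highest. The change was -0.09 ± 0.21 (SE; 95% interval -0.59 to 0.41; limma, adjusted p = 0.912). Its sign turned to 0.13 without KO replicate 3 and to 0.07 with the column of the slide as a term.

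**Figure D3:**
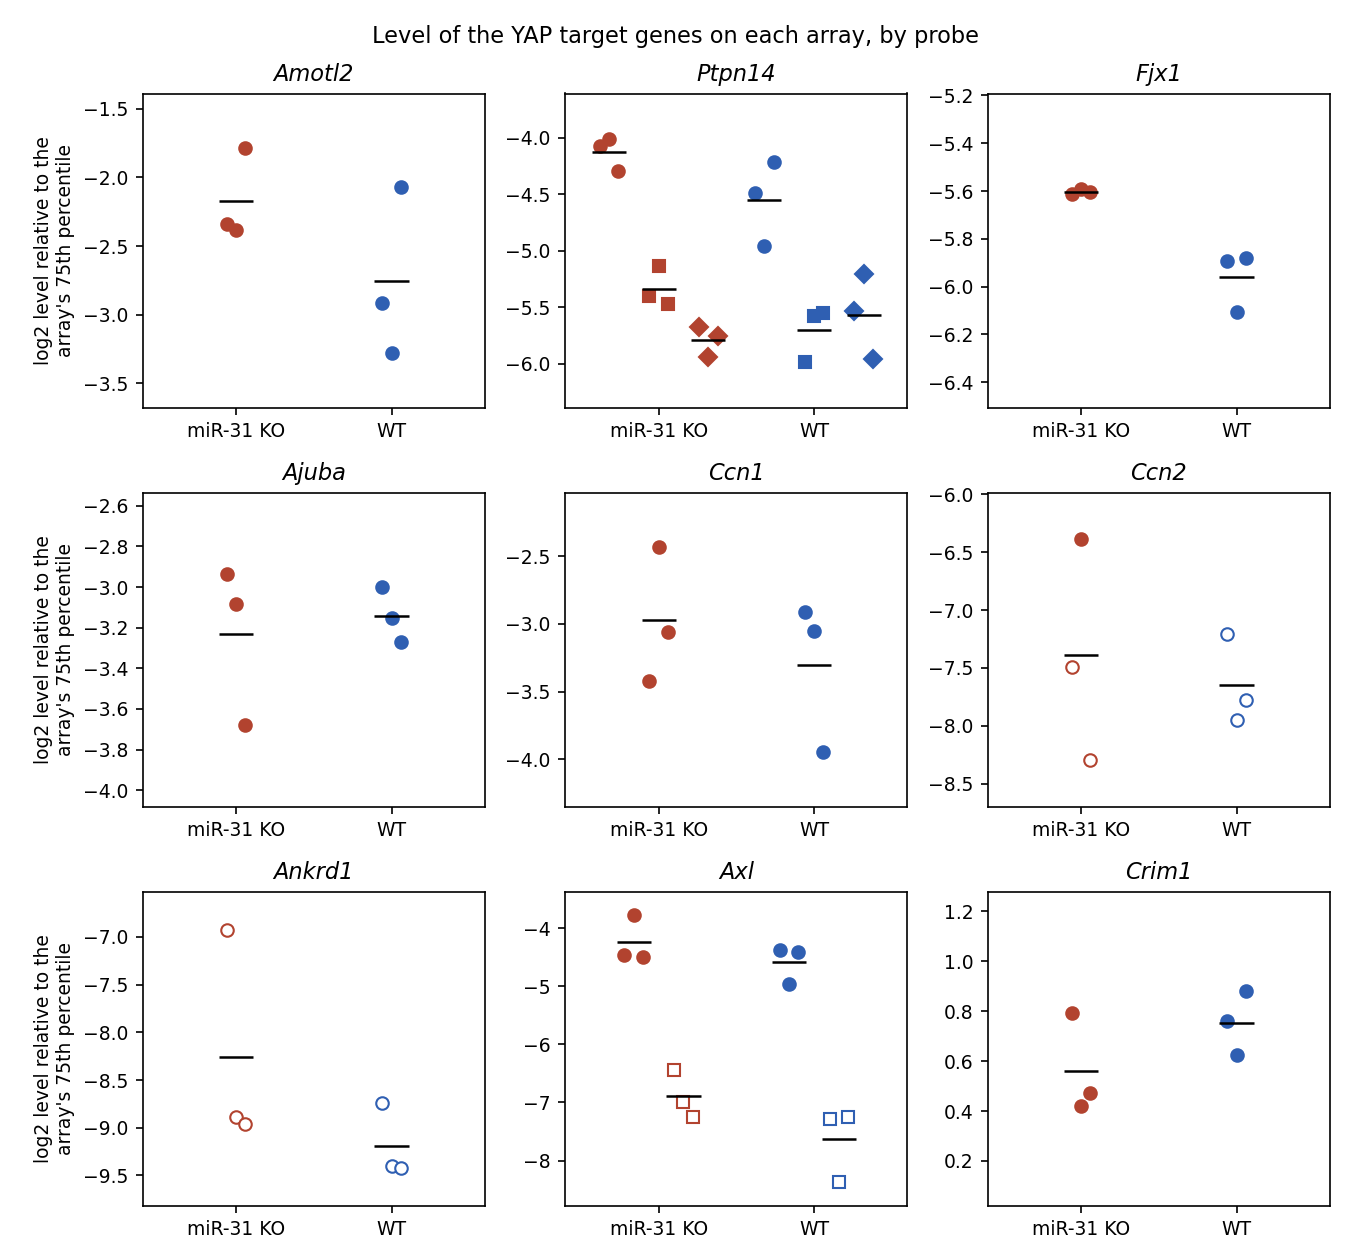
Level of the 9 YAP target genes on each array, miR-31 KO in red on the left and WT in blue on the right, as log2 relative to the array's 75th percentile (vertical axes differ between genes). Circles, squares and diamonds are different probes of a gene, open symbols were not well above background, and bars are means; spots marked as non-uniform are drawn for Crim1, and the Fjx1 groups do not overlap.

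Ccn1 and Ccn2 encode secreted matricellular proteins that bind integrins and are the most used readouts of YAP. Ccn1 had a log2 level of -3.42, -2.43 and -3.06 in KO mice, against -2.91, -3.05 and -3.95 in WT mice. The lowest value was that of WT replicate 3 and the highest that of KO replicate 2, and of the 4 mice between them the KO mice were the lower. The change was 0.34 ± 0.35 (SE; 95% interval -0.48 to 1.15; limma, adjusted p = 0.778). It was 0.01 without WT replicate 3, 0.07 without KO replicate 2 and 0.56 without KO replicate 1, and 0.06 with the slide column as a term.

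Ccn2 had a processed intensity of 19.7, 37.4 and 10.9 on KO arrays, against 20.3, 12.5 and 15.3 on WT arrays. It was well above background on 1 of the 6 arrays, that of KO replicate 2, and was not tested. The WT bound set by background was above the KO mean, so no fold is given. That array also had the highest level of Ccn1.

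Crim1 encodes a membrane protein with cysteine-rich repeats that binds growth factors of the BMP family. Its only spot was bright, with an intensity of 6133, 4179 and 4742 on KO arrays, against 5086, 4787 and 6167 on WT arrays. The software marked it as non-uniform on every array but that of KO replicate 3. With marked spots kept, its log2 level was 0.79, 0.42 and 0.47 in KO mice, against 0.76, 0.62 and 0.88 in WT mice, which overlap, and its change was -0.19 ± 0.15 (SE; limma, adjusted p = 0.702).

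Axl encodes a receptor tyrosine kinase of the TAM family, which binds the ligand Gas6. By its brighter probe the log2 level was -4.46, -3.77 and -4.49 in KO mice, against -4.37, -4.96 and -4.40 in WT mice. KO replicate 2 stood above the rest and WT replicate 2 below it, while the other 4 mice lay within a narrow band. The change was 0.34 ± 0.25 (SE; 95% interval -0.26 to 0.93; limma, adjusted p = 0.677), and it was 0.10 without KO replicate 2, 0.15 without WT replicate 2 and 0.55 with the slide column as a term. The other Axl probe was not well above background on any array, so it gives no fold.

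Ankrd1 encodes an ankyrin-repeat protein that muscle and stretched cells make, and it is among the strongest YAP targets in cultured cells. Its processed intensity was 29.2, 6.61 and 6.87 on KO arrays, against 7.02, 4.58 and 4.90 on WT arrays. None of these signals was well above background, so its level and change were not measured here.

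Set beside each other, the tested members were often highest in 1 KO mouse and lowest in 1 WT mouse. KO replicate 2 had the highest level of the 6 mice for 4 of the 6 genes (Ptpn14, Fjx1, Ccn1 and Axl), and WT replicate 2 had the lowest for 4 (Amotl2, Ptpn14, Fjx1 and Axl). Over 24064 features measured on every array, KO replicate 2 was highest for 17.8% and WT replicate 2 was lowest for 9.71%. With each gene centred on its mean over the arrays, the mean over the 6 genes was 0.08, 0.34 and 0.07 in KO replicates 1 to 3, against -0.04, -0.36 and -0.08 in WT replicates 1 to 3. All KO means were above all WT means, and the members' median change was 0.23 without KO replicate 2 and 0.25 without WT replicate 2. Those 2 arrays shared a column of the slide, and all KO arrays lay in 1 row of it and all WT arrays in the other, so row and genotype cannot be told apart.

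**Figure D4:**
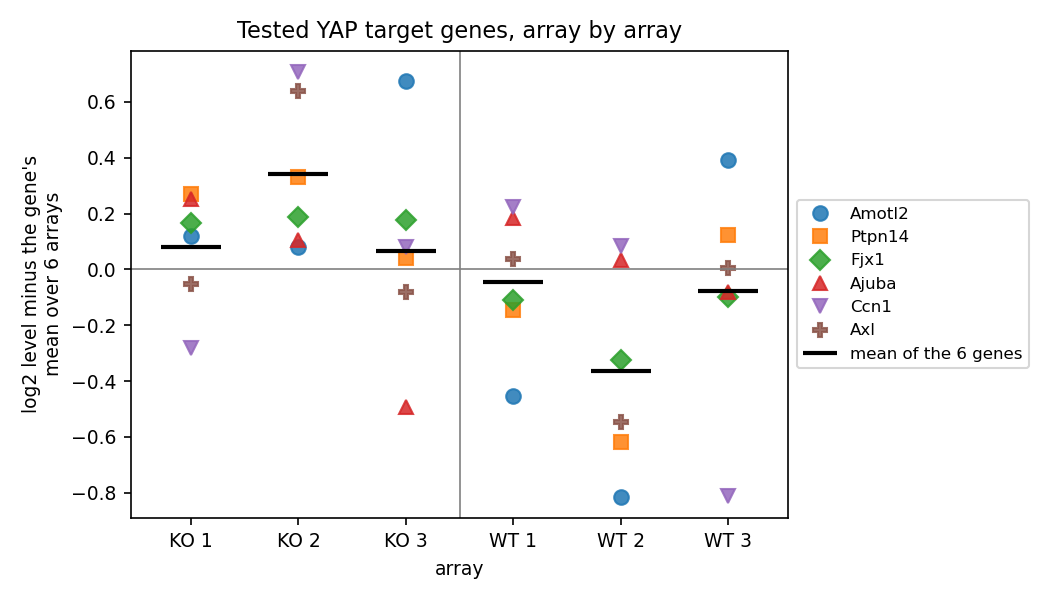
Level of the 6 tested YAP target genes on each array, centred on each gene's mean over the 6 arrays (vertical axis, log2), with the miR-31 KO arrays left of the WT arrays. Symbols are genes and bars are their means, which run highest in KO replicate 2 at 0.34 and lowest in WT replicate 2 at -0.36.

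The epithelial label was checked on 11 markers, all of which were well above background on all arrays. Their summed level, on a linear scale where the 75th percentile is 1, was 118 to 127 in KO mice and 121 to 138 in WT mice. Fibroblasts and endothelium are known to express Ccn1 and Axl as well. The 11 fibroblast markers summed to 1.87 to 3.24 in KO mice and 1.96 to 2.66 in WT mice, with Pdgfra at background on every array. Vim had the highest level of them. Of the 6 fibroblast markers tested, 3 were above 0 and 3 below, with a median of 0.09 and 0 called in limma. Col1a2 was at 0.55 ± 0.37, Col3a1 at 0.31 ± 0.37, Col1a1 at 0.21 ± 0.45 and Dcn at -0.20 ± 0.48 (SE). The 11 endothelial markers summed to 0.729 to 0.904 in KO mice and 0.865 to 0.954 in WT mice, with Cdh5, Kdr, Tek, Flt1 and Emcn at background throughout. Smooth muscle markers, 7 of 9 of them above background on all arrays, summed to 16.3 to 23.1 in KO mice and 19.3 to 23.2 in WT mice. Most of that sum came from Acta2. Of the 8 smooth muscle markers tested, 2 were above 0 and 6 below, with a median of -0.18 and 0 called in limma. Macrophage markers (8 of 10) summed to 22.7 to 24.5 in KO mice and 21.2 to 24.8 in WT mice, most of it from Itgam. Of the 9 tested, 3 were above 0 and 6 below, with C1qa at 0.78 ± 0.30, C1qb at -0.53 ± 0.13, C1qc at -1.15 ± 0.44 and Mrc1 at -0.68 ± 0.30 (SE; 0 called). Lymphoid markers (8 of 10) summed to 1.98 to 3.15 in KO mice and 1.91 to 2.65 in WT mice.

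Of the goblet markers 4 were tested, all above 0, with a median of 0.13. Of the colonocyte markers 3 were tested, all below 0, with a median of -0.03. In limma 0 of either list were called. The adipocyte list and the enteroendocrine and tuft list held members that differed in direction. The 5 adipocyte markers, 3 of them above background on all arrays, summed to 0.612 to 1.08 in KO mice and 0.415 to 0.541 in WT mice. The difference in that sum lay in Cidec, a lipid droplet protein gene, at 0.98 ± 0.26 (SE; limma, adjusted p = 0.280), while Adipoq was at -0.34 ± 0.31 and Lep at -0.11 ± 0.13. The 7 enteroendocrine and tuft markers, all above background on all arrays, summed to 15.9 to 20.8 in KO mice and 13.2 to 16.1 in WT mice, and their highest sum was that of KO replicate 2. The endocrine markers Chga, Chgb and Neurod1 were at 0.59 ± 0.18, 0.32 ± 0.17 and 0.54 ± 0.18 (SE), and the hormone gene Pyy at -0.13 ± 0.21. The tuft markers Dclk1, Trpm5 and Pou2f3 were at -0.47 ± 0.16, -0.19 ± 0.23 and -0.25 ± 0.26 (SE). In limma 0 of these 7 were called, and their median was -0.13. Probes well above background made up 66.6% to 71.1% of all probes on KO arrays and 70.9% to 75.6% on WT arrays. The part of these differences in the levels of the YAP targets was not tested.

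No kinase or factor above these genes in the pathway passed the threshold. Of 31 genes of the Hippo core and YAP's partners, 22 were tested, 14 were above 0 and 8 below, with a median of 0.09, and 0 were called in limma either adjusted or at an unadjusted p under 0.05. Yap1 itself had a level of 0.98, 1.25 and 1.01 in KO mice, against 0.94, 0.94 and 0.96 in WT mice. Every KO mouse was above every WT mouse, by 0.13 ± 0.12 (SE; adjusted p = 0.749). Such a lack of overlap, in either direction, was found for 18.2% of the tested genes of this list and for 18% of all features. Wwtr1, which encodes TAZ, was at 0.55 ± 0.39 (SE; adjusted p = 0.666), and at 0.19 without KO replicate 2 and 0.21 without WT replicate 3.

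Of the LATS kinase genes, Lats2, which is both a YAP target and a reported miR-31 target in lung cancer, had a level of -1.13, -0.71 and -0.88 in KO mice, against -1.29, -1.17 and -1.23 in WT mice. The groups did not overlap by this probe, and the change was 0.32 ± 0.14 (SE; limma, adjusted p = 0.477). Its other probes were at 0.37 ± 0.16 and -0.47 ± 0.20, so they disagreed in sign, and the mean of the 3 probes was at 0.08. Lats1 was measured on 2 KO and 3 WT arrays after marked spots were left out, with a change of 0.21 ± 0.30 (SE; adjusted p = 0.848). With marked spots kept a brighter Lats1 probe entered, and its change was -0.0057.

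Among the TEAD factors, Tead2 had a change of 0.32 ± 0.21 (SE; adjusted p = 0.637), which was 0.09 without WT replicate 1, and Tead4 of -0.25 ± 0.19 (adjusted p = 0.688). Tead1 was at -0.08 ± 0.12 (adjusted p = 0.864). Tead3 was at -0.00014 ± 0.15, and it took either sign as the processing varied. Dchs1, the mammalian Dachsous cadherin, was lower in every KO mouse than in any WT mouse, by -0.27 ± 0.13 (adjusted p = 0.519).

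Another 14 genes of a published YAP and TAZ signature, of which 11 were tested, had a median of 0.06, with 6 above 0 and 5 below. In limma 0 were called, and 1 (9.09%, against 10.7% of all features), Tgfb2, was lower at an unadjusted p under 0.05. The median turned to -0.10 with the slide column as a term, and ran from -0.06 to 0.23 with 1 array left out. Lats2, given above, was 1 of them. Myof, which encodes the membrane repair protein myoferlin, was at -0.40 ± 0.20 (SE; limma, adjusted p = 0.541, 3 KO and 2 WT arrays). Tgfb2, a TGF-beta ligand, was well above background on the 3 WT arrays and on no KO array, so it entered the test through the WT arrays alone. No fold is given for Tgfb2, because its KO signals were not well above background. With normexp background correction its log2 change was -0.34.

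Of 19 genes linked to YAP in gut regeneration, 15 were tested, 5 were above 0 and 10 below, with a median of -0.04 and 0 called in limma. At an unadjusted p under 0.05, 2 (13.3%) were higher and 0 lower, against 10.7% of all features, with 3.18% higher. The groups did not overlap for 20% of the list and for 18% of all features. Ereg, which encodes the EGF receptor ligand epiregulin, had a level of -3.23, -3.39 and -2.79 in KO mice, against -4.52, -3.96 and -3.75 in WT mice. Its groups did not overlap, and its change was 0.94 ± 0.24 (SE; limma, adjusted p = 0.273). Cldn4, which encodes the tight junction protein claudin 4, had a level of 0.10, 0.54 and 0.69 in KO mice, against -0.91, -0.64 and 0.08 in WT mice, a change of 0.93 ± 0.28 (SE; adjusted p = 0.327).

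The other genes named from that list ran the other way. Myc, which encodes a growth-promoting transcription factor, was at -0.36 ± 0.17 (SE; adjusted p = 0.536, 2 arrays in each group), and at -0.08 with marked spots kept, over 3 arrays in each group. Il33, which encodes an alarmin cytokine, was at -0.38 ± 0.28 (SE; adjusted p = 0.670), and at -0.04 without KO replicate 3. Its KO mice ranged more widely, at -3.67, -3.80 and -4.75, than its WT mice, at -3.70, -3.68 and -3.69.

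Of 20 paralogs, ligands and partners of the members, 16 were tested, 7 were above 0 and 9 below, with a median of -0.02. Several of them are also in the Hippo list. In limma 0 were called, with 1 higher and 1 lower at an unadjusted p under 0.05, Pros1 and Ankrd2. That is 12.5% of the list, against 10.7% of all features, with 3.18% higher and 7.55% lower. The groups did not overlap for 25% of the list and for 18% of all features. For the receptor Axl, the ligand Gas6 was at -0.03 ± 0.14 (SE; adjusted p = 0.955, 2 KO and 3 WT arrays). Pros1, which encodes protein S, a ligand of the Axl relatives Tyro3 and Mertk, had a level of -0.04, 0.03 and -0.35 in KO mice, against -0.88, -0.37 and -0.52 in WT mice. Its groups did not overlap, with a change of 0.47 ± 0.18 (SE; limma, adjusted p = 0.420), and its other probe was at 0.70 ± 0.21. Ankrd2, a muscle paralog of Ankrd1, was at -0.35 ± 0.14 (adjusted p = 0.433). Itgb5, an integrin subunit of the kind that binds Ccn1, was at 0.19 ± 0.11 (adjusted p = 0.595).

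Ccn1 is also an immediate early gene, which serum or handling of a tissue can induce within minutes, so its companions were set beside it. Of 21 immediate early genes and targets of the factor SRF, 16 were tested, 4 were above 0 and 12 below, with a median of -0.08. In limma 0 were called, and 2 were lower at an unadjusted p under 0.05, Egr1 and Atf3. That is 12.5% of the list, against 10.7% of all features, with 7.55% lower. The groups did not overlap for 6.25% of the list and for 18% of all features. The factor Egr1 had a level of 0.90 ± 0.10 in KO mice, against 1.32 ± 0.24 in WT mice (SD, n = 3 each). All KO mice were below all WT mice, and the change was -0.42 ± 0.15 (SE; adjusted p = 0.399). Atf3, a stress-induced factor, was at -0.66 ± 0.25 (adjusted p = 0.413), Egr2 at -0.46 ± 0.25 (adjusted p = 0.565) and the phosphatase gene Dusp1 at -0.33 ± 0.21 (adjusted p = 0.612). The summed level of the list was 57.1 to 64.1 in KO mice and 61.9 to 70.9 in WT mice. Ccn1, at 0.34, had the opposite sign to these 4 genes, and none of the 5 passed the threshold. The 4 were named for the smallest p in the list, and 4 others of the 16 were above 0, the highest also at 0.34. Whether handling had a part in these levels was not tested.

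**Figure D5:**
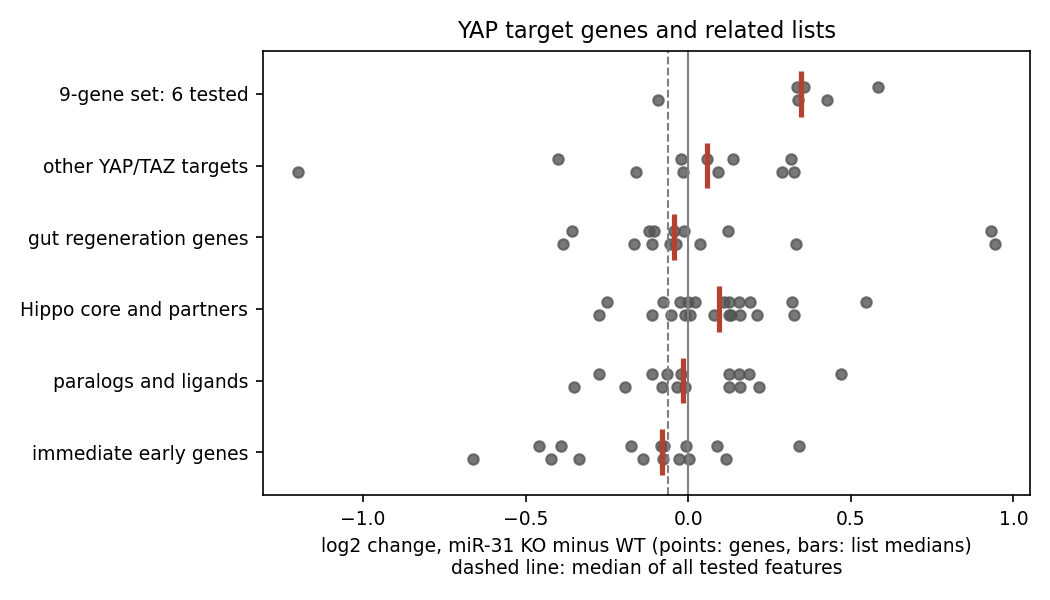
Change of each tested gene in the YAP target set and in the 5 related lists, as grey points on the log2 scale (miR-31 KO minus WT), with each list's median as a red bar and the median of all features (-0.06) as a dashed line. The median of the 9-gene set, over the 6 tested, is 0.35 and those of the other lists lie between -0.08 and 0.09.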

How the data were processed

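The deposited scanner files hold the intensity of each spot, and per the file headers were made with Agilent Feature Extraction 11.5.1.1, while the submitters' processing notes name 10.7. The processed intensity is background-subtracted, without scaling across arrays. Of the values in the deposited series table, 99.7% differed from it by less than 0.01 on the log2 scale, so scale and direction are known. Each array has 59305 non-control spots. The number of arrays, 3 per group, limits the precision. The log2 of the deposited intensity minus the array's 75th percentile was computed. Spots marked as non-uniform or as outliers in the deposited flag columns (flag scores of 0 or 1) were left out, and spots of 1 probe were averaged. A probe was tested if well above background on at least 3 arrays and unmarked on at least 2 per group. The brightest probe stood for a gene, and no covariate was used (limma 3.58.1, statmod 1.5.0, R 4.3.3, the data.table package, version 1.17.8). The method was run on simulated data with independent normal noise, where median estimates were checked against the changes put in. False calls were not checked there. Replicates are mice, with no statement of separate litters. All arrays lay on 1 slide with 1 scan time. The normexp alternative used median spot signals, since no mean signal is in the files. Members, lists and named genes (up to 4 per list by smallest p, 1 of which is not reported here, with Yap1, Wwtr1, Lats1, Lats2, the Tead genes, Gas6 and Ereg) were chosen with earlier results of these data known. Symbols come from RefSeq (GRCm38.p6); the array design names mm9. Other settings are in the closing section.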

Additional observations from a re-analysis of the deposited data

How the results depend on the processing

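None of the 6 tested YAP targets was called under any of the 18 alternatives. Their median change ranged from 0.18 with normexp background correction to 0.47 with the slide column as a term, and was 0.23 to 0.45 when 1 array at a time was left out. Members whose KO arrays all lay above the WT arrays numbered 1, against 2 when the probes of a gene were averaged and 1 to 3 with an array left out. Amotl2, Ptpn14, Fjx1, Axl and Ccn1 stayed above 0 under every alternative, Ptpn14 by its brightest probe or the mean of its probes. The third Ptpn14 probe stayed below 0, from -0.44 to -0.04, under all 17 alternatives in which it was fitted. Ajuba turned to 0.069 with the slide column, and ran from -0.24 to 0.13 with an array left out.

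Among all features, 58 were called (41 higher, 17 lower). The counts were 100 (73 and 27) with normexp, 106 (70 and 36) with a variance trend and robust fit, 104 (63 and 41) with array weights and 216 (130 and 86) with the slide column. They were 33 (25 and 8) where a probe had to be above background on all arrays, and 35 with 6 lower without a filter on dim probes. Leaving out 1 array gave 8 to 91 calls, 5 to 45 higher and 0 to 46 lower. The cause of these shifts was not tested.

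Of the other genes named, Lats1 was at -0.0057 with marked spots kept, where another, brighter probe stood for the gene, and at -0.00060 with the series table. Tead3 turned to 0.047 with the array median, 0.069 with array weights, 0.093 with the slide column and 0.0050 with the series table, and ran from -0.14 to 0.079 with an array left out. Gas6 turned to 0.054 with normexp, 0.023 with the array median and 0.086 with the slide column, and ran from -0.098 to 0.0067 with an array left out. No paired analysis was possible because the labels give no replicate numbers shared between the groups. The slide column is a position, and its term rests on the 4 arrays in shared columns. Those arrays are of the same 4 mice whose numbers share their first digits, so the columns are no separate check. The medians of the related lists ran from -0.10 to 0.23 (other YAP and TAZ targets), -0.13 to 0.09 (regeneration), -0.02 to 0.15 (Hippo), -0.06 to 0.13 (paralogs and ligands) and -0.19 to 0.01 (immediate early) over the alternatives. Signals near background limit Fjx1, Ccn2 and Ankrd1.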
